A study of Mus musculus with 6 samples.

Results

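The Ikaros zinc finger family has 5 genes in the mouse, and all 5 were measured among 22180 genes on arrays of CD8+ T cells labelled wild type or Dot1l knockout: Ikzf1 (Ikaros), Ikzf2 (Helios), Ikzf3 (Aiolos), Ikzf4 (Eos) and Ikzf5 (Pegasus). The genes were chosen by family name, with the difference between the same knockout and wild type arrays already known, so the values of the 5 genes are given as a description and without a test. Each gene had 1 probe set, and none of the 5 shared a probe set with another gene. The 6 Affymetrix whole-transcript arrays hold 3 samples labelled wild type and 3 labelled Dot1l knockout, all of strain C57BL/6. The knockout comes from crossing Dot1l flox/flox with CD4-Cre animals, in which the Cd4 promoter drives Cre in developing thymocytes, so deletion is shared by T cells of the CD4 and the CD8 lineage. The labels do not say which floxed or Cre alleles the wild type mice carried, nor the ages. Cells were enriched from peripheral lymph nodes and spleen with a magnetic kit and were not treated further. Whether each array stands for its own mouse is unstated, so errors and p-values cover the spread among these samples alone, part or all of which may be technical.

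Proteins of this family carry a cluster of zinc fingers near the amino end that binds DNA, at sites built on the core GGGAA, and a second cluster near the carboxyl end through which family members pair with themselves and with each other. Ikaros is the founding member and is required for lymphocyte development, acting largely with the NuRD chromatin remodelling complex. Helios is found in regulatory T cells, in some CD8+ T cells and in innate-like lymphocytes, Aiolos rises as lymphocytes mature and is abundant in B cells, Eos acts with Foxp3 in regulatory T cells, and Pegasus is the most distant relative, with a different preference for DNA. Dot1l itself methylates lysine 79 of histone H3.

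Helios and Aiolos read higher in knockout-labelled arrays, Ikaros and Pegasus read slightly lower, and Eos lay near background in both groups. On the log2 scale of the deposited values, Ikzf2 differed by 1.16 (SE 0.12, 2.24-fold) and Ikzf3 by 0.57 (SE 0.11, 1.49-fold). Ikzf1 differed by -0.11 (SE 0.10), Ikzf4 by -0.03 (SE 0.17) and Ikzf5 by -0.27 (SE 0.12). The groups did not overlap in 2 members that read higher and in 1 that read lower, where 13.7% and 9.78% of all genes tested did so in those directions. These shares come from the contrast in view of which the genes were chosen, and nothing is read from them. In bulk RNA, fewer cells of a type and less RNA per cell cannot be told apart.

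**Figure D1:**
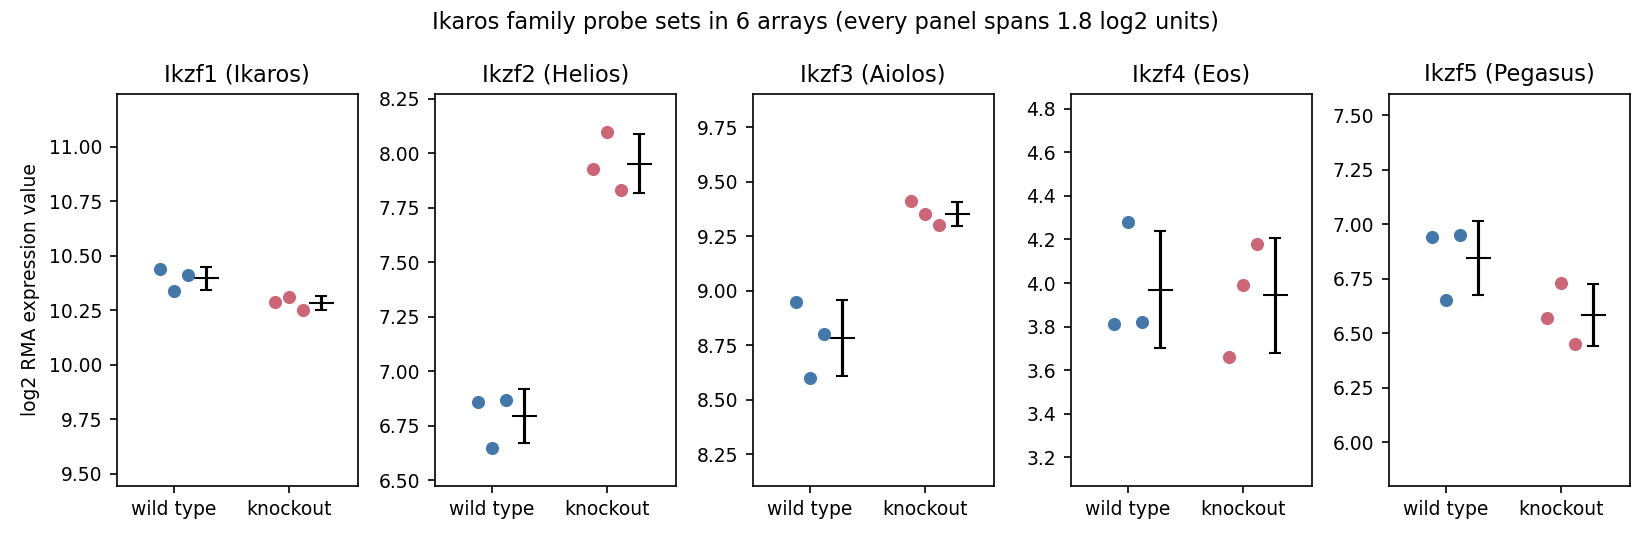
Log2 expression value (y axis) of the 5 family members in wild type and knockout-labelled arrays. Points are single arrays, bars are the mean ± SD of 3 arrays, and each panel spans the same range; the knockout-labelled points of Ikzf2 and Ikzf3 lie above all wild type points.

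Helios showed the widest separation of the family. Ikzf2 read 6.86, 6.65 and 6.87 in the wild type arrays and 7.93, 8.10 and 7.83 in the knockout-labelled arrays. The lowest knockout-labelled array lay 0.96 above the highest wild type array, several times the SD within either group (0.13 in wild type and 0.14 in knockout-labelled arrays, n = 3 each). Group means were 6.79 ± 0.13 and 7.95 ± 0.14 (SD), well above the background guide of 3.83, which is the 95th percentile of 1394 olfactory and vomeronasal receptor genes. Of all genes tested, 99.0% had a smaller difference in size, and the median size over all genes was 0.13. Such ranks of members come from the contrast in view of which the genes were chosen, and they are description only. The difference stayed between 1.09 and 1.22 when any array was left out.

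Aiolos read higher too, by a smaller amount. Ikzf3 read 8.95, 8.60 and 8.80 in wild type and 9.41, 9.35 and 9.30 in knockout-labelled arrays. All 3 knockout-labelled arrays were above all wild type arrays, with a gap of 0.36 between the groups. The means were 8.78 ± 0.17 and 9.35 ± 0.05 (SD, n = 3), so the wild type arrays were the more scattered, and wild type replicate 2 was the lowest. Without that array the difference was 0.48, and over all 6 arrays left out in turn it was 0.48 to 0.65.

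Ikaros had a small difference between the groups. Ikzf1 read 10.44, 10.34 and 10.41 in wild type and 10.29, 10.31 and 10.25 in knockout-labelled arrays. The knockout-labelled arrays were all below the wild type arrays, but the gap was 0.02 and the difference of -0.11 was about as large as its standard error. It had the smallest spread of the family (SD 0.06 and 0.03), and 45.2% of all genes had a smaller difference in size. After each array was centred on its median the difference was -0.16.

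Pegasus leaned the same way with overlapping groups. Ikzf5 read 6.94, 6.65 and 6.95 in wild type and 6.57, 6.73 and 6.45 in knockout-labelled arrays, with means of 6.85 ± 0.17 and 6.58 ± 0.14 (SD, n = 3). Knockout replicate 2 exceeded wild type replicate 2, so the groups overlapped. The difference ranged from -0.37 without wild type replicate 2 to -0.20 without knockout replicate 3. Without knockout replicate 2 it was -0.34.

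Eos was barely above the background guide of 3.83. Ikzf4 read 3.81, 4.28 and 3.82 in wild type and 3.66, 3.99 and 4.18 in knockout-labelled arrays. The groups overlapped over almost their whole range, and the sign of the difference changed with the array left out, from -0.15 without knockout replicate 3 to 0.13 without wild type replicate 2. No difference in Eos was seen, and at this signal a small one could be missed.

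**Figure D2:**
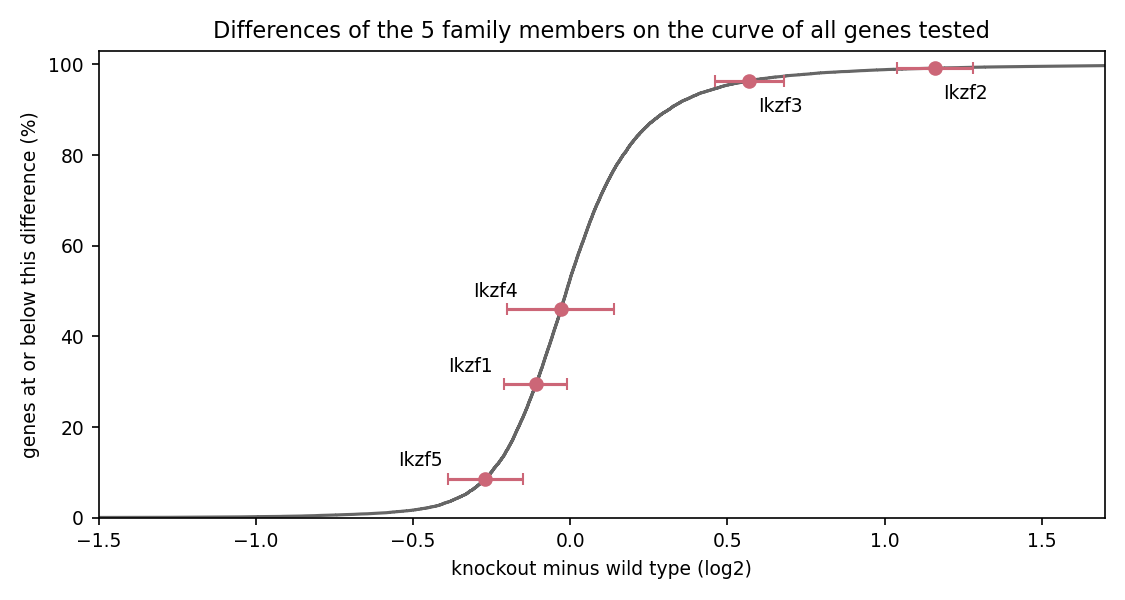
Knockout minus wild type difference on the log2 scale (x axis) against the share of all 22180 genes at or below it (y axis, percent). The curve is all genes, and the points with bars are the 5 members with the standard error of the difference; Ikzf2 and Ikzf3 lie on the upper shoulder of the curve, and Ikzf5 lies low on it.

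Within single arrays the distance between Helios and Pegasus held almost the same value in all samples of a group. This pair was picked as the steadiest after the distances of all pairs of members were seen. Other pairs varied more, and Ikzf2 minus Ikzf4 was 3.04, 2.37 and 3.05 in wild type and 4.27, 4.11 and 3.65 in knockout-labelled arrays. Ikzf2 minus Ikzf5 was -0.08, 0.00 and -0.08 in wild type arrays and 1.37, 1.37 and 1.38 in knockout-labelled arrays. These are distances between 2 probe sets, so only their change between arrays can be read, not which gene had more transcript. The distance between both members that read higher, Ikzf2 minus Ikzf3, went from -2.09, -1.95 and -1.93 to -1.47, -1.25 and -1.47, so that Helios changed by more than Aiolos in every knockout-labelled array against every wild type array. Ikzf1 minus Ikzf3 went from 1.5, 1.73 and 1.61 to 0.88, 0.96 and 0.94. Wild type replicate 2 was the lowest wild type array for 4 members and the highest for Ikzf4.

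The genes whose pattern over the 6 arrays came nearest to that of Ikzf2 included the memory factor Eomes. Likeness was the root mean square difference between values centred on each gene's mean, over 10413 genes above the background guide. Slfn3, of the Schlafen family, was nearest at 0.073, followed by Ppp2r3a, a regulatory subunit of protein phosphatase 2A, at 0.077, and the magnesium transporter gene Slc41a2 at 0.101. Eomes came next at 0.102, and the palmitoyltransferase gene Zdhhc14 at 0.107. Differences between groups in these 5 genes ran from 1.03 (Slc41a2 and Zdhhc14) to 1.27 (Eomes), and Pearson's r with Ikzf2 over the 6 arrays was 0.988 to 0.994. With 3 arrays a group, such an r reflects mainly the step between groups.

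**Figure D3:**
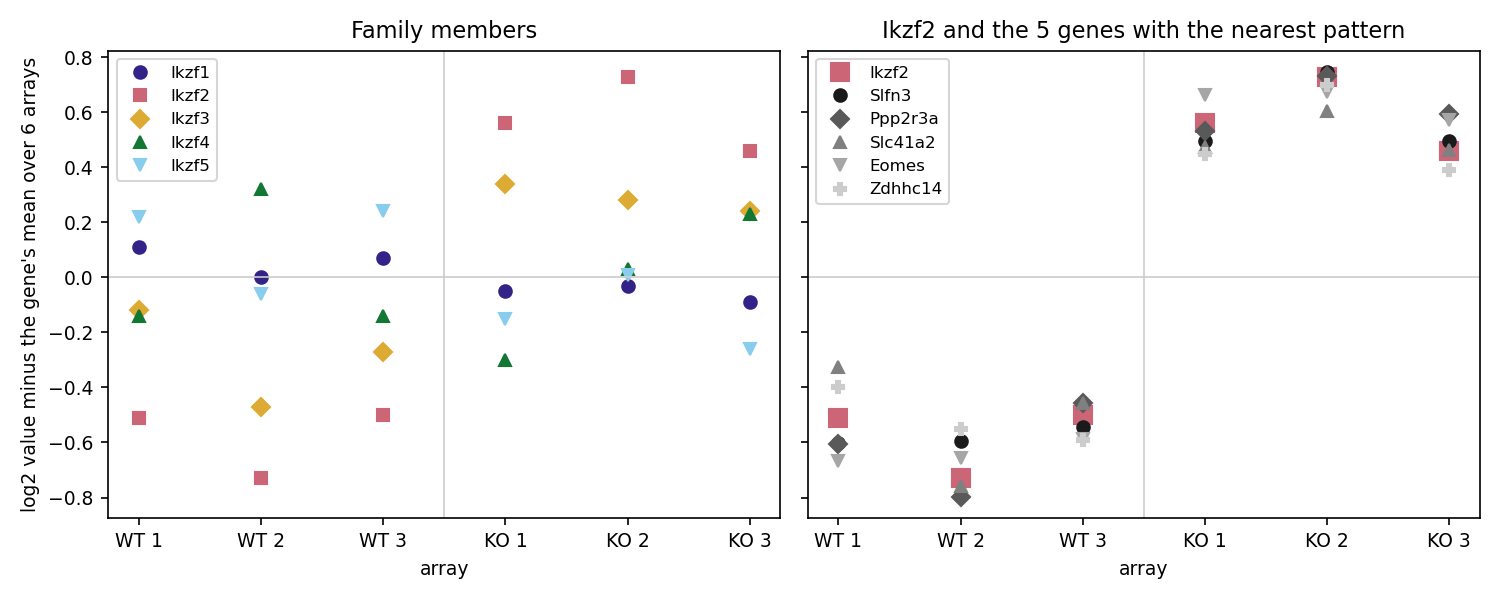
Log2 value of each gene minus its mean over 6 arrays (y axis) in each array (x axis; WT, wild type; KO, knockout-labelled). Left, the 5 family members; right, Ikzf2 with the 5 genes of nearest pattern, which lie close to it in every array.

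On a list of chromatin and signalling partners of Ikaros proteins and of the cereblon ubiquitin ligase, 1 gene passed, and it belongs to the ligase. Of 31 listed genes 29 were measured, and 0 rose, 1 fell and 28 did not pass (limma, Benjamini-Hochberg adjusted p under 0.05), where 4.3% of all genes tested were called higher and 1.2% lower. At an unadjusted p under 0.05, 2 were higher and 3 lower, and the median difference was 0.04 against -0.01 over all genes. Of 13 measured NuRD genes 0 passed by limma (1 higher and 2 lower at an unadjusted p under 0.05). Those were Hdac2 (difference 0.28, SE 0.10), Mbd2 (-0.29, SE 0.10) and Gatad2a (-0.32, SE 0.12). Chd4, the remodelling ATPase of the complex, was not among them and read 9.13 ± 0.07 and 9.33 ± 0.08 (difference 0.21, SE 0.10). The gene that fell was Crbn, which encodes cereblon, the substrate receptor of the ubiquitin ligase that thalidomide-type drugs direct to Ikaros and Aiolos in human cells. Crbn read 9.16, 8.88 and 9.22 in wild type and 8.43, 8.74 and 8.35 in knockout-labelled arrays, so the groups did not overlap (difference -0.58, SE 0.14, adjusted p = 0.0429). The call was lost in 4 of the 6 fits that left out 1 array, those without wild type replicate 1 (limma adjusted p = 0.106), wild type replicate 3 (0.14), knockout replicate 1 (0.15) and knockout replicate 3 (0.173).

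Of genes known to be regulated by Ikaros family proteins in lymphocytes, the 2 that rose were Tbx21 and Ifng. Of 21 measured, 2 rose, 0 fell and 19 did not pass, where 4.3% of all genes tested were called higher and 1.2% lower. At an unadjusted p under 0.05, 5 were higher and 1 lower, and the median difference was -0.01. Tbx21, which encodes the T helper 1 and effector factor T-bet, read 6.00, 6.28 and 6.01 in wild type and 7.07, 6.87 and 7.13 in knockout-labelled arrays (difference 0.93, SE 0.12, limma adjusted p = 0.00218). Ifng, the gene of the cytokine interferon gamma and itself a target of T-bet, read 4.87, 4.96 and 5.05 against 5.93, 5.74 and 5.66 (difference 0.82, SE 0.11, adjusted p = 0.00277). Both had groups that did not overlap and passed in all 6 fits that left out an array. Il2 (difference -0.06), which Ikaros and Helios are known to repress, lay below the background guide. Among the 9 measured genes of lymphocyte precursors and the Notch pathway, 0 passed by limma (1 higher and 1 lower at an unadjusted p under 0.05). Dtx1, a Notch target named after its value was seen, missed the threshold (difference -0.39, adjusted p = 0.0534) and passed in 6 of the alternatives.

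The core GGGAA was searched, on both strands, in the 250 bases before the gene starts that the RefSeq promoter table (GRCm38.p6) lists for these genes. Starts of 2 family members were matched, 2 for Ikzf1 and 1 for Ikzf5; Ikzf2, Ikzf3 and Ikzf4 were not matched. Over all 32851 windows of the table, 56.2% held at least 1 match, with 0.85 matches a window on average, so a match is common. The windows of the 2 matched members and of the 2 regulated genes that rose are shown so that the core can be seen in place, in capitals (TTCCC is GGGAA on the opposite strand), 5′ to 3′ on the strand of the gene. They are, in order, chr11:11685675-11685924 (plus strand), chr11:11689927-11690176 (plus), chr7:131410479-131410728 (minus), chr11:97115332-97115581 (minus) and chr10:118440796-118441045 (plus).
Ikzf1 upstream start: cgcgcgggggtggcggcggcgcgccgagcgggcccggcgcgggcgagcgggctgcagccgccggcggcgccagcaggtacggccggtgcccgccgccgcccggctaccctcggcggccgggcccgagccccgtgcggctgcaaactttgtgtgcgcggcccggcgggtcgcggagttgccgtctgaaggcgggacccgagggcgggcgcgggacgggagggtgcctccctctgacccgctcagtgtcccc
Ikzf1 downstream start: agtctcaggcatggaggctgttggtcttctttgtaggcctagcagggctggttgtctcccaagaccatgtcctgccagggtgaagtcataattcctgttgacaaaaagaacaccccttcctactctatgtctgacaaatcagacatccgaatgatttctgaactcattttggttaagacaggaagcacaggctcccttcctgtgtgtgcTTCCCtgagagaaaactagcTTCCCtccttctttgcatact
Ikzf5: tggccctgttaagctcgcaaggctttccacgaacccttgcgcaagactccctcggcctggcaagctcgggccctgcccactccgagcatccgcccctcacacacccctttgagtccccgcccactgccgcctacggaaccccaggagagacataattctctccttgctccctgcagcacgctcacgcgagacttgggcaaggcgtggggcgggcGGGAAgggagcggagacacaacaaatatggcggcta
Tbx21: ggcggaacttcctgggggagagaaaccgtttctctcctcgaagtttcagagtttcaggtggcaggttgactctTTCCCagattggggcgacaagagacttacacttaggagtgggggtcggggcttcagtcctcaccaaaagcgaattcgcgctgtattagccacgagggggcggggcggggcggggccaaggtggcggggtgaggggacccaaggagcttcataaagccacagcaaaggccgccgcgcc
Ifng: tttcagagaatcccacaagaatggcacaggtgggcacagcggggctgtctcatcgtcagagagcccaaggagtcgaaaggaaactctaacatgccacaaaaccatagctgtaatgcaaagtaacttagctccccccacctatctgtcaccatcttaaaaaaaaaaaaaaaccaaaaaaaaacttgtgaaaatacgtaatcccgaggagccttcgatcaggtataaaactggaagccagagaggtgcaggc
The upstream Ikzf1 window, at 82.0% G and C, held 0 matches, the other Ikzf1 window 2, at 41 to 37 and 21 to 17 bases before the start, and the Ikzf5 window 1, at 36 to 32 bases before it. Tbx21 held 1 match, at 177 to 173 bases before the start, and Ifng 0. These matches describe letters and not binding.

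Helios is known in some CD8+ T cell states, among them Ly49+ regulatory and virtual memory cells. Of genes listed for these states 6 rose, and no Ly49 receptor gene was among them. Only 3 of the 6 listed Ly49 receptor genes were measured, and Klra1, Klra3 and Klra7 were not. Of 15 listed genes 12 were measured, and 6 rose, 1 fell and 5 did not pass, with a median difference of 0.63 against -0.01 over all genes. Over all genes tested, 4.3% were called higher and 1.2% lower, and 954 of the 1220 that passed rose. The list was chosen with rises in memory genes of these arrays known, so its count is not independent evidence. The memory factor gene Eomes read 8.26, 8.27 and 8.34 in wild type and 9.59, 9.60 and 9.50 in knockout-labelled arrays (difference 1.27, SE 0.10, limma adjusted p = 9.86e-05). Il2rb, the receptor chain through which interleukin-15 signals, rose by 0.55 (SE 0.10, adjusted p = 0.0122), the adhesion receptor gene Cd44 by 0.77 (SE 0.10), the chemokine receptor gene Cxcr3 by 0.79 (SE 0.12) and Ly6c2 by 0.71 (SE 0.10). Klrc1, which encodes the inhibitory receptor NKG2A, rose by 1.30 (SE 0.15). The integrin gene of the list, Itga4, read 9.51 ± 0.14 and 9.76 ± 0.11 (difference 0.25, SE 0.11). It was higher without overlap between the groups but did not pass. The list gives no direction for Itga4, so its higher value is not read as a trait of these states. The call of Il2rb was lost without knockout replicate 1, 2 or 3 (limma adjusted p = 0.0561, 0.0553 and 0.0535).

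Of 3 measured Ly49 receptor genes 0 rose and 1 fell by limma (0 higher and 1 lower at an unadjusted p under 0.05). Klra6 fell from 6.19, 4.89 and 4.99 to 3.72, 3.31 and 2.86 (difference -2.06, SE 0.33, limma adjusted p = 0.00652), and all 3 knockout-labelled arrays lay below the background guide. Klra5 and Klra9 lay below it on average over the 6 arrays. The Ly49 genes are a family of related genes, and whether a probe set reads 1 of them alone was not checked. Klrd1, which pairs with NKG2A at the surface, read 9.38 ± 0.21 and 9.16 ± 0.17 and did not pass.

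**Figure D4:**
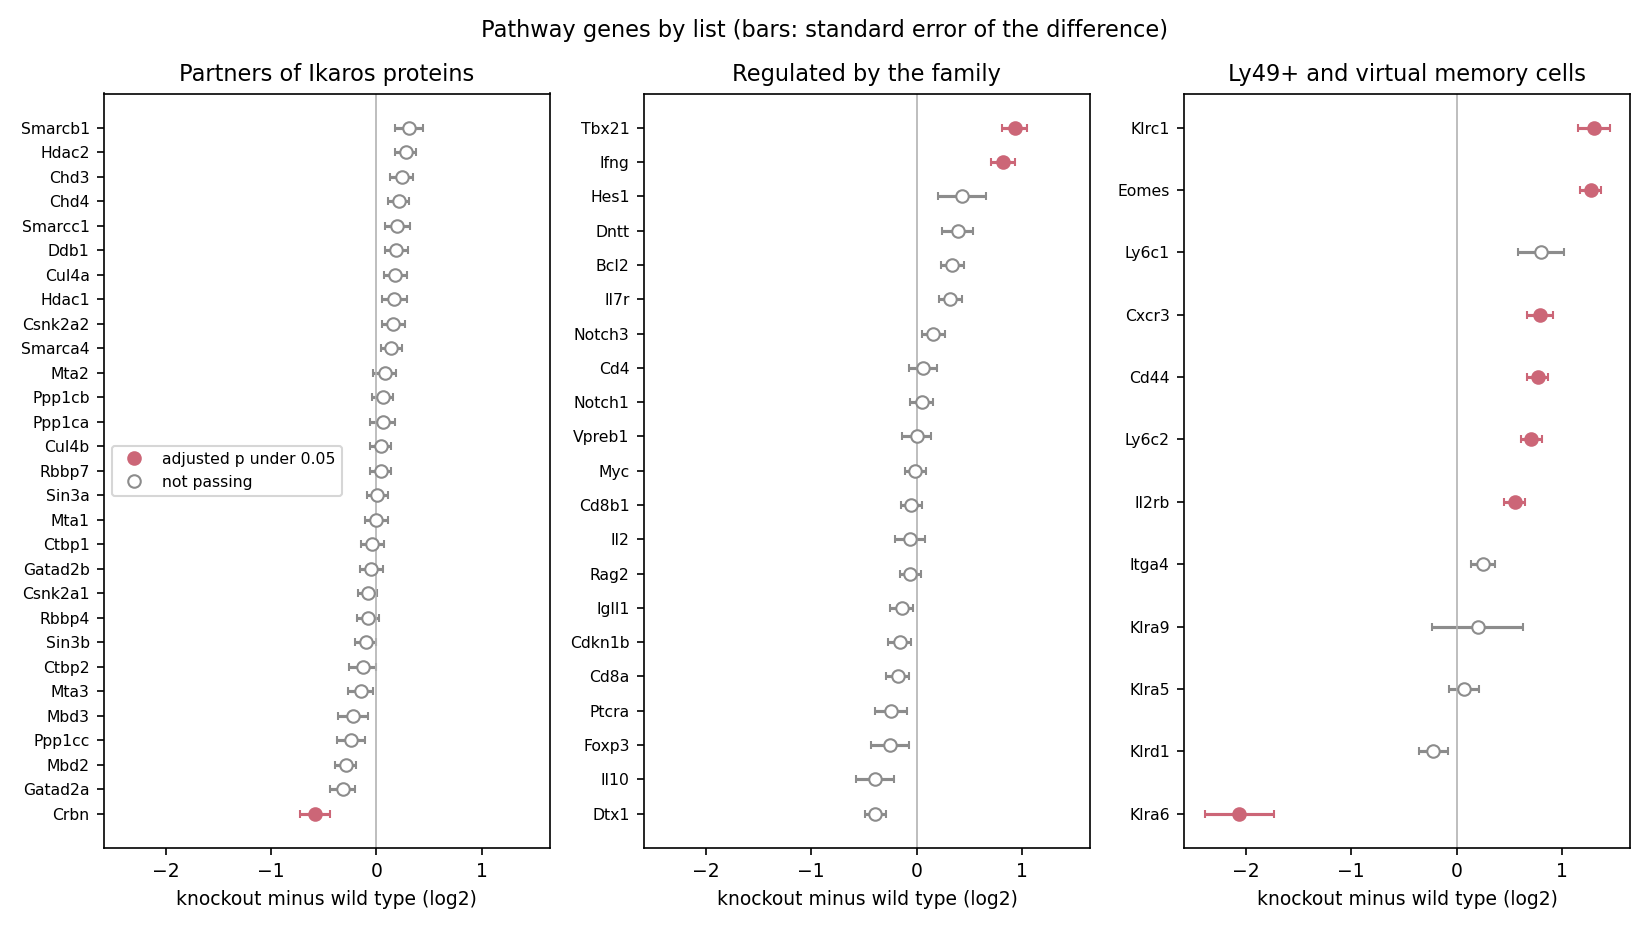
Knockout minus wild type difference on the log2 scale (x axis) for each measured gene (y axis) of the 3 lists. Points are the differences, bars their standard errors, and filled points passed at an adjusted p under 0.05; filled points are mostly in the right-hand list.

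Markers of other cells that use these factors were measured in the same arrays, and their part in the values of Ikzf2 and Ikzf3 was not tested. Regulatory T cells are a known source of Helios. Of their 9 markers 3 rose, 1 fell and 5 did not pass, where 4.3% of all genes tested were called higher and 1.2% lower. The summed linear level went from 800 to 919 in wild type to 1230 to 1260 in knockout-labelled arrays. Tnfrsf18 and Nrp1 make up that rise of the sum, and the median difference of the 9 markers was -0.25. Ctla4 read 8.03 ± 0.30 and 7.48 ± 0.09, lower without overlap between the groups but not passing. The defining factor Foxp3 read 5.09 ± 0.41 and 4.83 ± 0.07 (difference -0.25, SE 0.18), Cd4 lay near the background guide in both groups (3.79 ± 0.22 and 3.86 ± 0.08), and Gpr83 and Lrrc32 lay below it. The markers that rose were Nrp1 (3.80, SE 0.11), Tnfrsf18 (0.69, SE 0.10) and Il2ra (0.69, SE 0.14), and Izumo1r fell (-0.96, SE 0.19). Of 10 measured markers of B cells, a known source of Aiolos, 3 rose, 1 fell and 6 did not pass. Their summed level, in which Ighm is the largest part, was 2120 to 2440 in wild type and 1580 to 1740 in knockout-labelled arrays. The median difference of the 10 markers was 0.25, in the other direction from the sum. Ms4a1, Pax5, Ebf1 and Cr2 lay below the guide on average, Cd22 rose by 1.29 (SE 0.16), Ms4a1 by 1.13 (SE 0.14) and Cd79a by 0.86 (SE 0.21), and Ighm fell by 0.60 on the log2 scale.

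The markers of the labelled cell type were high. All 8 measured CD8 T cell markers lay above the guide, with Cd8a at 11.12 ± 0.12 and 10.95 ± 0.07, and 1 of them, Cd5, fell (-1.01, SE 0.10). Of 5 NK cell markers 2 rose and 0 fell by limma, with 4 higher and 0 lower at an unadjusted p under 0.05. Their median difference was 0.44, and their summed levels were 132 to 149 in wild type and 174 to 235 in knockout-labelled arrays. Of 4 markers of gamma delta and innate-like T cells 1 fell. Of 3 CD4 helper markers 1 fell, of 6 dendritic cell markers 1 rose, of 8 markers of monocytes, macrophages and neutrophils 1 rose, and of 5 plasma cell markers 0 passed by limma (1 higher and 1 lower at an unadjusted p under 0.05). Over all genes, 954 rose (4.3%) and 266 fell (1.2%) as deposited, 755 and 342 after median centring and 624 and 470 after another quantile normalization. The median difference was -0.0121 over these genes and 0.0513 over the 16010 unnamed probe sets, which were not tested. Correlations of arrays over genes were 0.989 to 0.995 within groups and 0.984 to 0.987 between them. Dot1l read 7.46, 6.96 and 7.18 in wild type and 7.31, 7.26 and 7.33 in knockout-labelled arrays, so it was not lower under the knockout label. The deleted exon is not named by the labels, and a probe outside it checks nothing.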

How the data were processed

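The deposited table holds log2 expression values of 41345 probe sets, which the authors made with RMA. The submitters' processing notes name R 3.1.1 for this step and no genome build. RMA subtracts background, gives the arrays a like distribution and summarises each probe set, and it compresses differences of dim genes. Array medians were 3.69 to 3.78. The number of arrays limits the precision.

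Probe sets with exactly 1 gene symbol in the platform annotation (23521, with 1814 naming several and 16010 unnamed) were kept, and the one with the highest mean was used per gene. All 5 members kept their symbol in RefSeq. Knockout minus wild type was fitted with limma 3.58.1 under R 4.3.3, using lmFit and plain eBayes, with Benjamini-Hochberg adjustment over 22180 genes, and tested on simulated data. The members and the lists (Ikaros partners, genes regulated by the family, Ly49+ and virtual memory cells, and 10 lists of cell type markers, of which the erythroid one had no gene measured) were chosen with earlier results of these data known. Named by rule were the members, every list gene that passed, Dot1l and the 5 genes nearest Ikzf2, without predicted genes, small RNAs or receptor segments. Marker genes, Chd4, Hdac2, Mbd2, Gatad2a, Il2, Dtx1, Itga4 and Klrd1 were named after their values were seen. Alternatives were a replicate block, each array left out, other scalings, level filters, trend with robust fitting, array weights and probe set means.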

Additional observations from a re-analysis of the deposited data

How the results depend on the processing

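Differences of the 5 members kept their size within 1 SD of the arrays under all 11 alternatives each, except Ikzf1 after median centring (-0.16); over arrays left out in turn they were 1.09 to 1.22 for Ikzf2, 0.48 to 0.65 for Ikzf3, -0.15 to -0.09 for Ikzf1, -0.37 to -0.20 for Ikzf5 and -0.15 to 0.13 for Ikzf4. No member had another probe set to try, so probe set means could not change these differences. The replicate block could not change them either, because each replicate number has a sample in both groups. Genes passing over all genes (1220) ranged from 615 to 1307 with an array left out, lowest without knockout replicate 3. The partner list had 1 gene, 0 with the replicate block (Crbn, limma adjusted p = 0.0979), 2 with trend and robust fitting and 0 to 1 with an array left out. The list of regulated genes had 2, 5 with trend and robust fitting and 2 with any array left out, and the Ly49+ and virtual memory list had 7 and 6 to 8. The labels do not say whether replicate numbers pair the samples. Same-numbered deviations from the group means were not positively correlated (-0.16 to -0.07). The replicate block left 912 genes passing. The cause of these changes was not tested. Eos and other dim genes are limited by signal over background.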
